A study of Sus scrofa with 16 samples.

Results

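The luteal ovary of sows of high and low fecundity was compared by small RNA sequencing, over the known porcine miRNAs that do not appear in the interaction networks drawn by the study. Ovaries came from Canadian Large White sows slaughtered on day 14 of the estrous cycle, in the luteal phase. The LH group held 4 high fecundity sows and the LL group 4 low fecundity sows, with 1 library from the ovarian tissue of each sow. A further 8 sows killed on day 20, in the follicular phase (FH and FL, 4 each), served only for the comparison of phases. The labels name no treatment and no altered gene, so the groups differ in the reproductive record of the animals and in whatever goes with it. In the study's phenotypic records every LH sow had a higher parity than every LL sow, and fecundity and parity therefore cannot be told apart. The deposited table has 1940 entries, of which 216 are known miRNAs. Leaving out the 13 network members gave 203 known miRNAs, and 180 of them had enough counts to be tested in LH vs. LL.

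miRNAs are short RNAs that guide Argonaute proteins to partly complementary sites, mostly in the 3′ ends of mRNAs, and lower the output of those mRNAs. Members of a family share the seed at their 5′ end and so share many targets, and miRNAs of a cluster are cut from a common transcript. In the luteal phase the ovary is dominated by corpora lutea, which are built from luteinised granulosa and theca cells with a dense bed of vessels, and which also hold stroma, smooth muscle and leukocytes. Because ovarian tissue was sequenced in bulk, fewer cells of a type and less of a miRNA per cell cannot be told apart in any of the values below.

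Luteal libraries held 14954411 to 24396229 counts in LH and 14172683 to 24593646 in LL, and known miRNAs took 98.2% to 99.2% of them. The 10 most abundant entries of the 203 took 69.1% to 77.8% of the counts. The -3p and -5p entries of ssc-miR-143 are both among them with identical counts, so these are not 10 separate measurements. Levels are given below as TMM-normalised CPM, where TMM (trimmed mean of M-values) is a factor that removes differences in composition between libraries and CPM is the count scaled to a common library size. Where an entry was listed at 0, up to 3 counts remain possible, which is 0.122 to 0.212 CPM by library without the TMM factor and covers counting error only. The TMM factors themselves did not overlap between the groups, at 0.753 to 0.921 in LH and 1.05 to 1.46 in LL. Scaling by library size alone moved the median log2 fold change of the tested miRNAs from 0.01 to 0.60, so directions given here are relative to the bulk of miRNAs. The gonadal miRNA ssc-miR-202-5p was present in every library, at 1467 to 2971 CPM in LH and 1590 to 4465 CPM in LL.

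Single libraries stood apart in both groups. LL4 had a median correlation of 0.929 with the other LL libraries across the tested miRNAs, whereas LL1, LL2 and LL3 had 0.979 to 0.981. In LH the medians were 0.931 to 0.937, and LH4 carried far more ssc-miR-34c than the other sows. The other 9 miRNAs of the epithelial and ciliated list summed to 2219 CPM in LH4, within the range of the other sows. Of these 9, 4 were highest in LH4. For some of the calls in which LH4 or LL4 stood out, the value without that sow is also given. Entries named for the arms of a hairpin were not always separate. The -3p and -5p entries of ssc-miR-143, ssc-miR-221, ssc-miR-296 and ssc-miR-7140 had identical counts in all libraries, so an arm named here may hold reads of the other arm. ssc-miR-199a-5p and miR-199b-5p agreed within 1% in all 16 libraries, and so did ssc-miR-24-1-5p and miR-24-2-5p. Such pairs do not count as separate measurements.

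In LH vs. LL, 26 of the 180 tested miRNAs passed the study's threshold of P under 0.05 before adjustment together with a log2 fold change of 1 or more in either direction. Over all 362 entries tested the share was 13.0%. Of the 26, 11 were up-regulated and 15 down-regulated in LL, where 6.63% and 6.35% of all entries were called in these directions. A wider set of 42 miRNAs had an unadjusted P under 0.05, against 18.0% of all entries. With the P values of edgeR's quasi-likelihood test adjusted over all entries by Benjamini-Hochberg, 1 of the 203, ssc-miR-1, had an adjusted p under 0.05 (0.829% of all entries). The other 25 had adjusted p values of 0.101 to 0.275, so the list below is a list of candidates by the study's own threshold. Log2 fold changes are LL over LH, so negative values are lower in LL. Calls below rest on P before adjustment, and each p printed from a fit is the edgeR value after adjustment. Family, cluster and cell type lists were chosen with earlier results of these data known. Counts of calls within a list are therefore descriptions, also where the share of all entries stands beside them.

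Those lower in LL included the miR-99/100 family, miR-26a, miR-148a, miR-195, the HOX-locus miRNAs miR-10a and miR-196 and the striated muscle miRNAs miR-1 and miR-133b. Those higher in LL included miR-107, 3 of the 4 members of the X-linked cluster of miR-450 and miR-542, miR-500 and miR-132. The ranges of the groups were separate for 15 of the 26, 7 higher and 8 lower in LL, and for 30 of the 180 tested (16.3% of all entries). With library size in place of TMM, 47 miRNAs were called, 41 higher and 6 lower in LL, against 11 and 15 with TMM, and 17 of them were among the 26. None of the 26 changed direction, as the plot of fold changes shows. Those that no longer passed were all lower in LL, namely ssc-miR-100, miR-195, miR-9, miR-148a-5p, miR-204, miR-26a, miR-187, miR-196a and miR-133b.

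**Figure D1:**
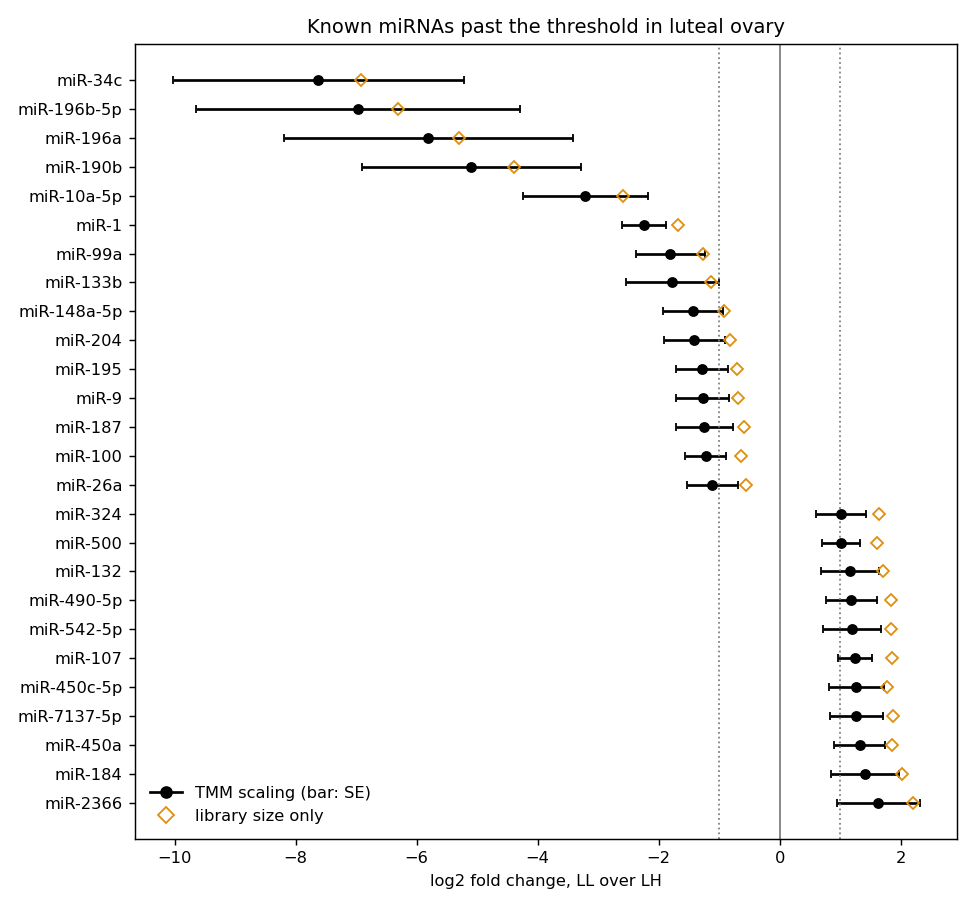
Log2 fold change, LL over LH, of the 26 called miRNAs from edgeR with TMM scaling (black circles, bars are standard errors, n = 4 sows per group) and with library size only (open diamonds). Dotted lines mark the threshold of 1 in either direction, and every diamond lies to the right of its circle and on the same side of 0.

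Calls also depended on which sows and covariates entered the fit. Leaving out each sow in turn kept 7 of the miRNAs past the threshold in all 8 fits, namely ssc-miR-1, miR-107, miR-100, miR-34c, miR-99a, miR-10a-5p and miR-450a. With parity as a covariate 30 miRNAs were called, of which 9 were among the 26 (ssc-miR-1, miR-100, miR-34c, miR-10a-5p, miR-9, miR-190b, miR-196b-5p, miR-184 and miR-133b). Parity did not overlap between the groups, so this fit cannot separate fecundity from parity, also for the miRNAs that passed. With the share of reads that survived cleaning as a covariate 6 were called, and 3 were among the 26 (ssc-miR-1, miR-107 and miR-450a). ssc-miR-1 was the miRNA that passed under every one of these settings.

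The miR-99/100 family, whose known targets include mTOR and the IGF1 receptor, was lower in LL. ssc-miR-99a measured 122902, 245454, 67382 and 128295 CPM in LH1 to LH4, and 17534, 24305, 37464 and 82095 CPM in LL1 to LL4. The groups overlapped at a single point, since LL4 lay above LH3. The log2 fold change was -1.81 (standard error, SE, 0.58, adjusted p = 0.22), and -2.49 without LL4. ssc-miR-100 was at 5807, 10611, 7002 and 10154 CPM in LH and at 2329, 2756, 3799 and 5515 CPM in LL, with every LL sow below every LH sow. Its log2 fold change was -1.22 (SE 0.34, adjusted p = 0.202). An exact two-sided permutation test of log2(CPM + 1) gave an unadjusted p = 0.0286, the smallest that 4 against 4 sows allow. The 15 called miRNAs without overlap all reached this value, so it only restates that the groups were separate. The last entry of the family, ssc-miR-99b, was listed at 0 in all luteal libraries although 6 follicular libraries had 11971 to 34546 counts of it.

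In the RefSeq annotation of the Sscrofa11.1 assembly the miR-99a and miR-100 hairpins each lie within 10 kb of a let-7 hairpin. The neighbour of miR-99a, ssc-let-7c, measured 18198, 38303, 16352 and 22256 CPM in LH and 12387, 9009, 15158 and 15589 CPM in LL. These groups did not overlap either, but the log2 fold change of -0.87 (SE 0.33, adjusted p = 0.253) was below the fold threshold. None of the 7 let-7 entries was called. Their median log2 fold change was -0.52 with TMM and 0.04 with library size only, so no direction is given for the let-7 family as a whole. ssc-miR-125b, the partner of these clusters, ran from 7464 to 29229 CPM in LH and from 2760 to 16857 CPM in LL (log2 fold change -1.11, adjusted p = 0.405).

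Several other abundant miRNAs were lower in LL. ssc-miR-148a-5p, whose family is known to target the DNA methyltransferase DNMT1, measured 58316, 44667, 75061 and 34422 CPM in LH and 6282, 31460, 15111 and 25987 CPM in LL. All LL sows were below all LH sows, with LL1 the lowest (log2 fold change -1.43, SE 0.50, adjusted p = 0.244). The call was lost without LH3 or LL3. Its relatives did not follow it, with log2 fold changes of 0.21 for ssc-miR-148b and 0.40 for ssc-miR-152, neither past the threshold.

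ssc-miR-26a, known for its target EZH2, was at 57608, 117173, 48842 and 65163 CPM in LH and at 17069, 33697, 28652 and 54122 CPM in LL. LL4 reached into the LH range and the other LL sows did not (log2 fold change -1.11, SE 0.42, adjusted p = 0.253). Leaving out LH2, LL1, LL2 or LL3 ended the call, and over the 8 fits the value ran from -1.53 to -0.81. ssc-miR-101, in the same list, had a log2 fold change of -1.04 (SE 0.62, adjusted p = 0.434).

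ssc-miR-195 belongs to the miR-15/16 family, whose seed targets cyclins and other drivers of the cell cycle. Its levels were 700, 1821, 971 and 1220 CPM in LH and 287, 320, 514 and 809 CPM in LL, where LL4 was above LH1. The log2 fold change was -1.29 (SE 0.43, adjusted p = 0.24), and the call was lost without LH2. Its cluster partner ssc-miR-497, which lies within 10 kb, had a log2 fold change of -0.21 (adjusted p = 0.852), and ssc-miR-16 had -0.30 (adjusted p = 0.662). In this family of 5 entries ssc-miR-195 was the one that was called.

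ssc-miR-204, from the list of granulosa and luteal steroidogenic cells, measured 95.3, 153, 70.4 and 275 CPM in LH and 39.3, 58.1, 41.5 and 84.6 CPM in LL. LH4 was the highest, and LL4 lay above LH3 (log2 fold change -1.41, SE 0.51, adjusted p = 0.244). Without LH4 it was -0.96 and no longer called, and the call was also lost without LL1 or LL3. It was the only one of the 5 tested miRNAs of that list that was called, and the others had log2 fold changes of 1.17 for ssc-miR-224 (SE 0.70, adjusted p = 0.434), 0.35 for miR-31, 0.30 for miR-21 and -0.06 for miR-378. ssc-miR-9, best known from neural progenitors, was at 40.6, 70.1, 64.9 and 100 CPM in LH and at 17.3, 33.1, 23.6 and 40.1 CPM in LL. These groups did not overlap, although LH1 and LL4 were nearly level (log2 fold change -1.27, SE 0.43, adjusted p = 0.24). Without LH4 the value was -1.09 and missed the P threshold.

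**Figure D2:**
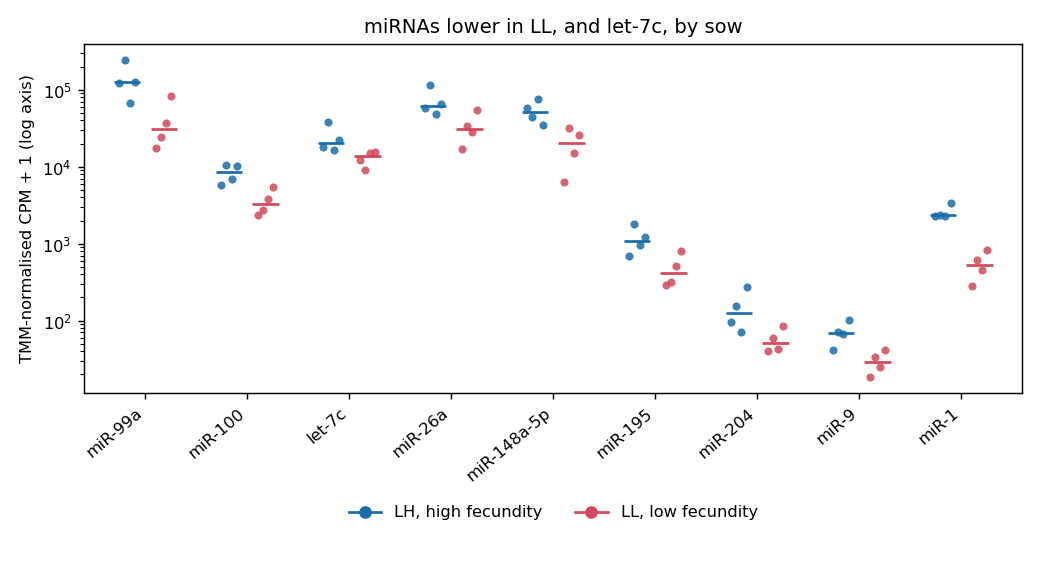
TMM-normalised CPM + 1 on a log axis for 8 called miRNAs lower in LL and for let-7c. Each point is 1 sow (blue LH, red LL, n = 4 each) and each line the median of its group. The LL points lie below all LH points for miR-100, let-7c, miR-148a-5p, miR-9 and miR-1, whereas at least 1 LL sow reaches the LH range for miR-99a, miR-26a, miR-195 and miR-204.

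The rise in LL with the smallest P was in the family of miR-103 and miR-107, miRNAs that lie in introns of pantothenate kinase genes and are known for effects on insulin sensitivity and on Dicer. ssc-miR-107 measured 804, 376, 647 and 632 CPM in LH and 1697, 1364, 1570 and 1204 CPM in LL, so that the lowest LL sow was well above the highest LH sow. Its log2 fold change of 1.25 stayed between 1.03 and 1.37 when each sow was left out. ssc-miR-103 was at 4196, 3264, 5642 and 3700 CPM in LH and at 8461, 7125, 7585 and 6127 CPM in LL. It separated the groups as well, but its log2 fold change of 0.80 (SE 0.23, adjusted p = 0.202) did not reach the fold threshold. These miRNAs have nearly the same mature sequence, and how reads were divided between them is not stated.

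In the X-linked cluster of miR-450 and miR-542, 3 of the 4 entries were called higher in LL, against 6.63% of all entries. ssc-miR-450a measured 1079, 467, 371 and 323 CPM in LH and 1101, 1178, 1684 and 1646 CPM in LL. The groups did not overlap, although LH1 came close to LL1 (log2 fold change 1.32, SE 0.42, adjusted p = 0.22). With all 16 libraries scaled together they did overlap, at 266 to 932 CPM in LH and 919 to 1455 CPM in LL. ssc-miR-450c-5p was at 1639, 699, 540 and 391 CPM in LH and at 1454, 1837, 2210 and 2354 CPM in LL. LH1 was again the high LH sow and here lay above LL1 (log2 fold change 1.26, SE 0.46, adjusted p = 0.244). Without LH1 the values were 1.84 for ssc-miR-450a and 1.83 for ssc-miR-450c-5p. The call of ssc-miR-450c-5p was lost in 5 of the 8 fits that left out a sow (LH2, LH3, LH4, LL3 or LL4), with a lowest value of 1.00, and that of ssc-miR-450a in none.

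ssc-miR-542-5p did not share the order of sows. Its levels were 819, 608, 1761 and 485 CPM in LH and 2547, 1395, 3100 and 1371 CPM in LL, with LH3 above LL2 and LL4. The log2 fold change was 1.20 (SE 0.48, adjusted p = 0.253), and 7 of the 8 fits that left out a sow lost the call. The fourth entry, ssc-miR-450b-5p, lies within 10 kb of the others and did not follow them, at 1010, 858, 1619 and 424 CPM in LH and 534, 1338, 920 and 1130 CPM in LL (log2 fold change 0.00, SE 0.44). None of the 4 was called lower.

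On another stretch of the X chromosome, ssc-miR-500 lies within 10 kb of the miR-532 hairpin. It measured 113, 66.7, 115 and 70.2 CPM in LH and 200, 223, 166 and 149 CPM in LL, with no overlap (log2 fold change 1.02, SE 0.32, adjusted p = 0.22). The value was just past the fold threshold, and the call was lost in 5 of the 8 fits that left out a sow. ssc-miR-532-5p was at 1527, 1017, 1286 and 802 CPM in LH and at 1452, 2756, 1511 and 1586 CPM in LL (log2 fold change 0.66, adjusted p = 0.305), where LL1 and LL3 lay within the LH range.

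The pair of miR-132 and miR-212 is cut from a common transcript that luteinising hormone and cAMP induce in granulosa cells through CREB. ssc-miR-132 measured 204, 44.2, 123 and 88.1 CPM in LH and 218, 374, 214 and 224 CPM in LL. Every LL sow was above every LH sow, by little in the case of LH1 (log2 fold change 1.17, SE 0.48, adjusted p = 0.256). ssc-miR-212 was at 35.8, 5.48, 40.4 and 28.5 CPM in LH and at 54.9, 52.2, 55.5 and 46.6 CPM in LL. Here too the groups did not overlap, and the LL sows lay close together, but the log2 fold change of 0.92 (SE 0.58, adjusted p = 0.454) was not called. LH2 was the lowest sow for both miRNAs, and 7 of the 8 fits that left out a sow lost the call of ssc-miR-132.

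**Figure D3:**
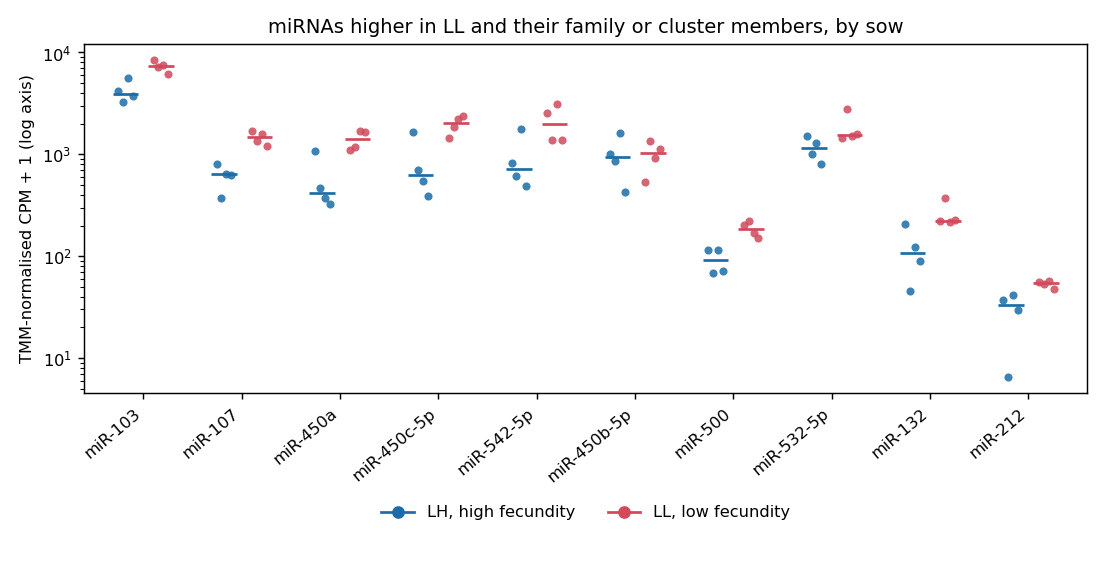
TMM-normalised CPM + 1 on a log axis for called miRNAs higher in LL (miR-107, miR-450a, miR-450c-5p, miR-542-5p, miR-500 and miR-132) beside relatives that were not called (miR-103, miR-450b-5p, miR-532-5p and miR-212). Each point is 1 sow (blue LH, red LL, n = 4 each) and each line the median. With the luteal libraries scaled on their own, the groups are apart for miR-103, miR-107, miR-450a, miR-500, miR-132 and miR-212 and overlap for the rest.

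Of the 4 tested muscle miRNAs, ssc-miR-1 and ssc-miR-133b were called, both lower in LL, against 6.35% of all entries. ssc-miR-1, a miRNA of skeletal and cardiac muscle, was at 2309, 2336, 2294 and 3334 CPM in LH and at 280, 616, 451 and 825 CPM in LL. The LH sows other than LH4 were almost level, and the highest LL sow was far below them. The log2 fold change was -2.24 (Benjamini-Hochberg adjusted p = 0.0413 from the edgeR quasi-likelihood test), the strongest call by P among the 26. It stayed past the study's threshold in every fit, but no miRNA had an adjusted p under 0.05 in 6 of the 8 fits that left out a sow, nor with no filter, collapsed entries, a replicate block, parity or the clean read share. ssc-miR-133b was at 9.37, 9.42, 10.3 and 47.5 CPM in LH and at 5.83, 1.98, 6.04 and 8.53 CPM in LL. It was the called miRNA nearest to the P threshold (log2 fold change -1.77, SE 0.77, adjusted p = 0.275), and without LH4 it was -0.85 and not called. Leaving out any LL sow also ended its call.

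Its neighbour ssc-miR-206, within 10 kb, had a log2 fold change of -1.45 (SE 0.74, adjusted p = 0.353). ssc-miR-499-5p, which is encoded in a myosin heavy chain gene, went the other way, at 65.6 to 154 CPM in LH and 159 to 184 CPM in LL without overlap (log2 fold change 0.74, adjusted p = 0.32). ssc-miR-208b was listed at 0 in all luteal libraries except LH4, which had 30 counts. The summed level of the 5 muscle miRNAs was 2377 to 3565 CPM in LH and 460 to 1013 CPM in LL. ssc-miR-1 made up most of it, so the sum mainly repeats that miRNA. How much muscle tissue was in the samples was not tested.

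The pair of miR-143 and miR-145, typical of smooth muscle, was not called. ssc-miR-143-3p, among the most abundant miRNAs of the ovary, measured 120173, 137992, 166075 and 236526 CPM in LH and 84538, 78253, 89683 and 92953 CPM in LL. Every LL sow was below every LH sow, and the log2 fold change of -0.94 (SE 0.25, adjusted p = 0.17) stopped just short of the fold threshold. ssc-miR-145-5p had a log2 fold change of -0.83 (adjusted p = 0.253) and the groups overlapped. With library size only, the median log2 fold change of the 3 entries of this list was -0.31. That median is the value of miR-143, whose entries have identical counts, and ssc-miR-145-5p had -0.20.

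The largest fold changes among the 26 rested on few sows. ssc-miR-34c, abundant in multiciliated epithelium and in testis, measured 57.6, 50.0, 121 and 25948 CPM in LH and 26.4, 21.2, 48.5 and 35.9 CPM in LL. LH4 was thus more than the other sows by orders of magnitude, and the log2 fold change of -7.63 (SE 2.41, adjusted p = 0.22) shrank to -1.29 without it and stayed past the threshold. The remaining LH sows still lay above all LL sows. ssc-miR-190b was at 0.581, 0.332, 0.988 and 55.8 CPM in LH and at 0.350 to 0.599 CPM in LL. Its log2 fold change of -5.10 (SE 1.82, adjusted p = 0.244) had no value without LH3 or LH4, because too few counts were then left for the test, and 3 of the other 6 fits lost the call.

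The miR-10 and miR-196 miRNAs are encoded among the HOX genes. Of the 5 tested entries of their list, which also holds miR-615, 3 were called lower in LL, against 6.35% of all entries. ssc-miR-10a-5p measured 577, 507, 1639 and 9683 CPM in LH and 165, 420, 263 and 492 CPM in LL. The groups did not overlap, by a narrow margin between LH2 and LL4 (log2 fold change -3.21, SE 1.03, adjusted p = 0.22), and without LH4 the value was -1.53 and still called. With all 16 libraries scaled together, the lowest LH sow (427 CPM) lay below the highest LL sow (435 CPM). ssc-miR-196b-5p was at 16.8 CPM in LH1, 2.60 in LH2 and 385 in LH4, at 0.486 CPM in LL1, 1.19 in LL3 and 1.52 in LL4. It was listed at 0 in LH3 and LL2. A separate entry, ssc-miR-196b, had counts in 2 luteal libraries, 29 at most, and was not tested. In FH1 and FL1 that entry had 2372 and 438 counts where ssc-miR-196b-5p was listed at 0. How reads were divided between these names was not tested. The zeros of ssc-miR-196b-5p are therefore not read as absence, and its fold change includes them. ssc-miR-196a was at 113, 0.942, 0.679 and 41.8 CPM in LH, and in LL it was listed at 0 in LL1 and LL2, with 2.34 CPM in LL3 and 0.428 CPM in LL4. High values of miR-196a thus occurred in LH1 and LH4 and of miR-196b-5p mainly in LH4, and the calls (log2 fold changes -5.81 and -6.97) were lost without LH4, at -5.78 and -3.01. Each was lost in 5 of the 8 fits that left out a sow. ssc-miR-10b, which was at 7403 to 28209 CPM in the luteal libraries, had a log2 fold change of -0.79 (SE 0.30, adjusted p = 0.253).

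In the epithelial and ciliated list, the summed level of the 10 members was 28167 CPM in LH4, at most 4316 CPM in the other LH sows and 1998 to 3371 CPM in LL, and miR-34c made up most of the LH4 sum. Without miR-34c the sum was 2219 CPM in LH4, 2070 to 4195 CPM in the other LH sows and 1962 to 3350 CPM in LL, so that LH4 lay within the range of the rest. ssc-miR-429, of the epithelial miR-200 family, was at 125 CPM in LH4 and at 1.13 to 21.1 CPM in all other luteal sows. ssc-miR-205, miR-135 and miR-190b were also highest in LH4 (64.3 CPM for miR-205 and 229 CPM for miR-135), whereas the remaining 5 members were highest in other sows. Of the list, 3 members were called lower and 1 was called higher in LL, against 6.35% and 6.63% of all entries. The list was chosen with earlier results of these data known, so nothing is read from these counts. The part that epithelium in LH4 played in these calls was not tested.

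The member of that list that was higher in LL was ssc-miR-184, known from the lens and cornea, at 273, 182, 178 and 53.0 CPM in LH and at 651, 490, 499 and 178 CPM in LL. The groups overlapped at LL4 (log2 fold change 1.41, SE 0.56, adjusted p = 0.253), and LH4 and LL4 were the lowest sows of their groups. ssc-miR-187, which was lower in LL, had 6.10 to 12.5 CPM in LH and 3.17 to 5.22 CPM in LL without overlap (log2 fold change -1.24, SE 0.47, adjusted p = 0.253). Of the 8 fits that left out a sow, 6 lost the call of ssc-miR-184 (values of 1.05 to 1.67) and 5 that of ssc-miR-187 (-1.43 to -1.15).

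Among the LL sows, LL4 was high in ssc-miR-194a, ssc-miR-215 and ssc-miR-194b-5p, from the list of liver and gut. The part that these miRNAs played in the lower correlation of LL4 was not tested. ssc-miR-194a was at 1871 CPM in LL4 and at 15.7 to 24.8 CPM in the other LL sows, and ssc-miR-215 at 505 CPM against 1.74 to 2.79 CPM. ssc-miR-194b-5p was at 645 CPM in LL4 and no higher than 1.86 CPM in the other LL sows. The liver-specific ssc-miR-122 was not part of this, at 1.99 CPM in LL4. The list's summed level was 3023 CPM in LL4 and at most 58.8 CPM in the other LL sows. In LH it was 533 CPM in LH4 and at most 151.8 CPM in the other LH sows, and none of its members was called.

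**Figure D4:**
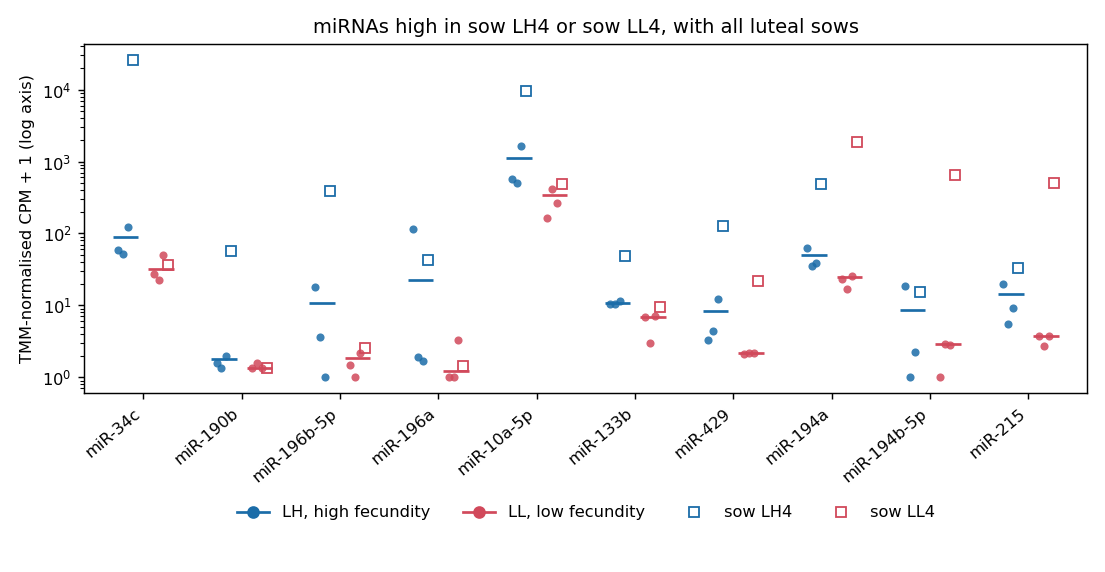
TMM-normalised CPM + 1 on a log axis for miRNAs with high values in sow LH4 or sow LL4 (open squares) beside the other luteal sows (filled circles, blue LH and red LL, n = 4 per group), with the group medians as lines. LH4 lies far above the remaining sows for miR-34c, miR-190b and miR-196b-5p, and LL4 does so for miR-194b-5p and miR-215.

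The remaining 4 calls were low-abundance miRNAs that belonged to no list, and all were higher in LL. ssc-miR-7137-5p was at 5.76 to 11.0 CPM in LH and 14.7 to 24.4 CPM in LL (log2 fold change 1.27, SE 0.44, adjusted p = 0.244). ssc-miR-490-5p was at 7.09 to 12.8 CPM in LH and 15.9 to 28.9 CPM in LL (log2 fold change 1.18, SE 0.42, adjusted p = 0.244). These groups did not overlap, and the same held for ssc-miR-324, at 6.21 to 9.96 CPM in LH and 12.4 to 20.9 CPM in LL (log2 fold change 1.01, SE 0.41, adjusted p = 0.255). ssc-miR-2366 ran from 2.38 to 17.1 CPM in LH and from 11.9 to 32.9 CPM in LL, where LH1 lay above LL4 (log2 fold change 1.63, SE 0.69, adjusted p = 0.258). Each of the 4 lost the call in at least 4 of the 8 fits that left out a sow.

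Some miRNAs separated the groups without reaching the fold threshold. Besides those above, ssc-miR-191 was at 1742 to 3656 CPM in LH and 4265 to 5923 CPM in LL (log2 fold change 0.77, adjusted p = 0.244), and ssc-miR-221-3p at 279 to 750 CPM and 814 to 982 CPM (0.80, adjusted p = 0.255). ssc-miR-140-5p, a miRNA of cartilage and mesenchyme, had each LL sow below all LH sows (-0.81, adjusted p = 0.253). By P, the miRNAs nearest to the threshold on the outside were ssc-miR-150 (-1.34, adjusted p = 0.29), ssc-miR-582 (-1.81, adjusted p = 0.336) and ssc-miR-205 (-1.27, adjusted p = 0.345), and each of them was highest in LH4.

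No member was called in the lists for the let-7, miR-125, miR-30, miR-29, miR-181 and miR-130 families, the miR-17-92, miR-23/27/24, miR-221 and miR-374 clusters, the imprinted DLK1-DIO3 cluster, smooth muscle, stroma, endothelium, erythroid cells, leukocytes, or liver and gut. The 5 miR-30 entries had log2 fold changes of -0.45 to 0.27, and the 6 entries of the miR-23/27/24 clusters -0.22 to 0.47. The 10 tested entries of miR-17-92 and its paralogs were split, with 5 above 0 and 5 below. The stromal list of miR-199 and miR-214 had a median of -0.88 with TMM and -0.35 with library size only. That median is the value of miR-199, whose entries 199a-5p and 199b-5p have nearly the same counts. ssc-miR-214 had -0.56 with TMM and 0.01 with library size only. ssc-miR-21, a well-studied miRNA of granulosa and luteal cells, varied among the LH sows from 35537 to 325211 CPM, while the LL sows lay between 192288 and 257168 CPM (log2 fold change 0.30, SE 0.56).

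A few miRNAs were present in a single group and could not be tested, because they had too few counts or were at 0 in too many libraries. ssc-miR-338 had 7, 41, 19 and 58 counts in LH1 to LH4 and was listed at 0 in all 4 LL libraries, whereas the follicular libraries had 12 to 82 counts. ssc-miR-105-1 had 4, 11, 3 and 5 counts in LH and was listed at 0 in LL. These counts are low, and no fold is given for them.

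Other entries switched between 0 and high counts from library to library. ssc-miR-142-5p, a miRNA of blood cells, was listed at 0 in all LH libraries and in LL2, and had 6722, 6625 and 7427 counts in LL1, LL3 and LL4. In the follicular libraries it was listed at 0 in FL1 and had 1489 to 9079 counts in the other libraries. In a single luteal library each, ssc-miR-365-3p had 1396 counts (LL2), ssc-miR-421-5p 691 (LL1), ssc-miR-4331 320 (LL2) and ssc-miR-489 17 (LH4), with 0 in the rest. In LL2 the count of ssc-miR-365-3p was within 1% of that of ssc-miR-365-5p, and the part that the assignment of reads to names played in such zeros was not tested. No level is read from them.

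The follicular sows gave the comparison of low with high fecundity in other animals and in another phase, so they do not repeat the luteal comparison. All 26 were tested in FH vs. FL, and 13 had the same sign there, a count from which nothing is read. The threshold was passed by 2 of them (6.19% of all entries tested in that comparison), and both went the other way: ssc-miR-34c had a log2 fold change of 5.12 (adjusted p = 0.585) and ssc-miR-190b of 5.66 (adjusted p = 0.585). In FL, ssc-miR-34c ran from 55.7 to 15224 CPM, whereas no FH sow was above 196 CPM, so high values occurred in some sows of the follicular phase too. ssc-miR-1 had a log2 fold change of -0.70 (adjusted p = 0.797), with 240 to 2672 CPM in FL and 1412 to 2984 CPM in FH.

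Whether the effect of fecundity differed between the phases was tested as an interaction in all 16 libraries. Of the 187 miRNAs tested, 27 passed the same threshold (13.3% of all entries), 7 with a higher and 20 with a lower value of LL over LH than of FL over FH. None had an adjusted p under 0.05 (edgeR, 31 with an unadjusted P under 0.05), whereas DESeq2 gave 21 and edgeR without the filter gave 6. Among the 27 were 10 of the 26 luteal calls. That count shares its luteal libraries with the calls, and nothing is read from it.

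ssc-miR-107 had the smallest interaction P of those 10. On the common scale the LH sows had 316 to 694 CPM and the LL sows 1065 to 1417 CPM, while FH had 400 to 852 CPM and FL 276 to 384 CPM. The LL sows were therefore above all others and the FL sows were below the FH sows. The log2 fold change was 1.25 between the luteal groups and -0.80 between the follicular ones (difference 1.95, SE 0.41, adjusted p = 0.0693). ssc-miR-103 had the same pattern, with a difference of 1.51 (SE 0.37, adjusted p = 0.0813).

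For ssc-miR-100 the LH sows had 5012 to 8928 CPM and the LL sows 1944 to 4876 CPM, while FH had 8492 to 13179 CPM and FL 8414 to 11935 CPM. It was low in the LL sows, and the follicular groups were alike in range (difference -1.17, SE 0.40, adjusted p = 0.169). ssc-miR-99a had a difference of -1.94 (SE 0.69, adjusted p = 0.193) and its neighbour ssc-let-7c of -1.20 (SE 0.39, adjusted p = 0.166). For ssc-miR-450a the LL sows, at 919 to 1455 CPM, were above FH (200 to 456) and FL (176 to 276). The LH sows had 266 to 932 CPM on this scale, so LH and LL overlapped slightly. The difference was 1.76 (SE 0.55, adjusted p = 0.166). The interactions of ssc-miR-107, miR-99a, miR-10a-5p, miR-450a, miR-450c-5p and miR-190b passed in all 16 fits that left out a sow, and under the other settings tried, whereas that of ssc-miR-100 was lost with library size only.

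**Figure D5:**
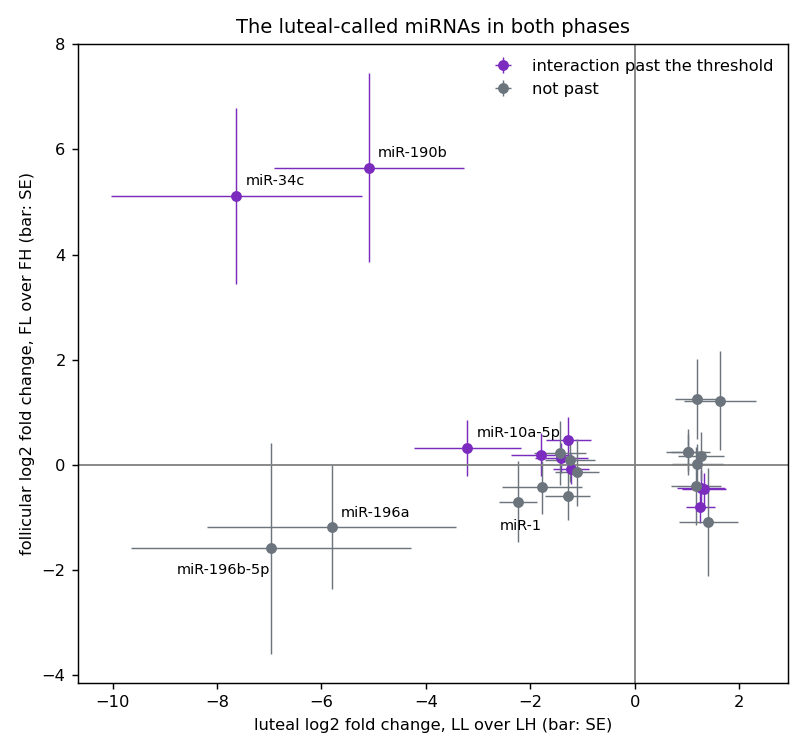
Log2 fold change in the follicular phase (FL over FH, vertical) against the luteal phase (LL over LH, horizontal) for the 26 luteal-called miRNAs, with standard errors as bars (n = 4 sows per group). Purple points passed the threshold in the interaction test; miR-34c and miR-190b lie at the upper left, and most other points lie near 0 on the vertical axis.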

How the data were processed

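Small RNA libraries of 16 sow ovaries were analysed, 8 of them luteal. The authors trimmed reads, mapped them to Sscrofa10.2 (Bowtie2 2.1.0 in the submitters' processing notes) and deposited raw counts per miRNA and library, without normalization. How reads were assigned to miRNAs is not given in the sources used here. Counts were fitted in R 4.3.3 with edgeR 4.0.16 (TMM, quasi-likelihood test, edgeR's own low-count filter, set to 10 counts and a total of 15) on the 8 luteal libraries, with Benjamini-Hochberg adjustment over all 362 entries. Interactions used all 16 libraries. A miRNA was called where P before adjustment was under 0.05 and the log2 fold change was 1 or more in either direction. Permutation tests used log2(CPM + 1). DESeq2 1.42.0 and the other alternatives are described in the closing section. The fits were tested on simulated data.

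Named miRNAs are every called miRNA outside the networks, its family or cluster, those listed at 0 in a single group and those nearest to the threshold. Members and lists were chosen with earlier results of these data known. Parity and the clean read share were taken from the study's supplementary records as covariates only. Sows are separate animals. Mature sequences and their GC content were not analysed here, and hairpin neighbours came from RefSeq (25 of the 26 called miRNAs matched).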

Additional observations from a re-analysis of the deposited data

Results flagged for a closer look

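Single sows far from the rest of their group were found for 6 of the 52 groups examined (26 called miRNAs in LH and in LL). Chance flags about 1 in 20 where groups are independent. These groups share their sows and their miRNAs were called on the same values, so nothing is read from this count. LH4 was the high sow for ssc-miR-1 (3334 CPM), ssc-miR-34c (25948 CPM), ssc-miR-190b (55.8 CPM) and ssc-miR-133b (47.5 CPM). LL2 was the high sow for ssc-miR-132 (374 CPM) and for ssc-miR-190b, there at the low level of 0.599 CPM.

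The interaction of fecundity and phase passed an unadjusted P under 0.05 in edgeR with a log2 difference of at least 1 for 10 of the called miRNAs, where 13.3% of all entries passed and none of the 10 had an adjusted p under 0.05. These miRNAs were chosen for their luteal change and the interaction uses the same luteal libraries, so the values are a description. The difference was positive for ssc-miR-107 (1.95), ssc-miR-450a (1.76) and ssc-miR-450c-5p (1.68). It was negative for ssc-miR-100 (-1.17), ssc-miR-99a (-1.94), ssc-miR-10a-5p (-3.59), ssc-miR-9 (-1.85), ssc-miR-204 (-1.60), ssc-miR-34c (-12.91) and ssc-miR-190b (-10.94). For ssc-miR-34c and ssc-miR-190b the high values came from some of the sows in both phases. Without LH4 their differences were -6.49 and -6.47, and that of ssc-miR-34c was not past the threshold with a replicate block (-6.61). The call was lost for ssc-miR-9 with no filter (-1.83) or without FL4 (-1.24), for ssc-miR-204 with library size only (-1.39), no filter (-1.58) or without LH4 (-1.18), and for ssc-miR-100 with library size only (-0.86).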

How the results depend on the processing

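The count of called miRNAs (26) was 47 with library size only, 16 with a replicate block, 6 with a term for the clean read share, and 15 to 46 with each luteal sow left out (46 when LH1 was left out, 17 for LH2, 16 for LH4, 15 for LL1 and 16 for LL3). It was within 1.5 times of 26 under DESeq2 on the same filter (28), TMM on the known miRNAs, no filter (20), a stricter filter, collapsed entries, all 16 libraries and parity (30, of which 9 were among the 26). The 1 miRNA with an adjusted p under 0.05 in edgeR became 15 in DESeq2 and 0 with no filter, collapsed entries, the replicate block, parity or the clean read share, where 31, 40, 25, 30 and 9 had an unadjusted P under 0.05, and 0 to 4 with a sow left out (4 without LH1). Replicate numbers did not pair the sows: correlations of same-numbered sows were 0.08, -0.25, -0.23 and 0.11, and none correlated best with its own number. The interaction count (27) ran from 22 to 34 over all settings; with library size only, 14 were higher and 9 lower, against 7 and 20. Over the 26 fold changes and all settings none reversed, 295 values kept their side of the threshold and 167 lost it. Depth limits miRNAs under about 10 counts. Of the 203, 23 were not tested, some with low counts and others listed at 0 in too many libraries. ssc-miR-142-5p was among the latter, with up to 7427 counts in a luteal library.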
